A study of Mus musculus with 10 samples.

Results

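Enteric neuron and glia genes are 39 genes, chosen as markers of the nerve cells of the gut wall and of the glia that surround them, that were read in the terminal ileum of control mice and of mice after repeated mild social defeat. The 39 genes were found by gene symbol among 18193 genes with a probe set of a single symbol, and each was read from 1 probe set, that of the highest mean signal. They covered 6 roles: 9 genes of the neuronal cell body and cytoskeleton, 6 of vesicle release and secretory granules, 10 of transmitters, peptides and receptors, 6 of the lineage and its trophic receptors, 3 of adhesion and 5 of glia. A floor on low signal (4.15 on the log2 scale) left 38 of them among 13666 genes tested, and the member below it was Nefm.

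The enteric nervous system lies in the wall of the intestine as ganglia in the muscle layer and beneath the mucosa, where excitatory and inhibitory motor neurons, interneurons and sensory neurons control motility, secretion and blood flow. Both its neurons and its glia come from neural crest cells, which enter the gut under the control of the receptors RET and EDNRB and of the transcription factor SOX10. Neurons release their messages from small synaptic vesicles and from dense-core granules that hold peptides, a machinery shared in part with the hormone-secreting enteroendocrine cells of the epithelium.

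The 10 mice were males of the C57BL/6JJmsSlc strain, 7 weeks of age, housed singly and given the AIN-93G diet, and the lower small intestine was taken after 3 h of fasting. The 5 control mice were unstressed. The 5 stressed mice were placed as intruders with older, resident male ICR mice under a subchronic mild social defeat protocol, in which physical contact after the first attack bite was 5 min on day 1 and became 0.5 min shorter each day, down to 0.5 min on day 10. Total RNA of each mouse (100 ng) was labelled and hybridised to 1 Affymetrix array, whose probe sets lie near the 3' end of transcripts. The question is which transcripts of the ileum differ after this stress. The labels describe each sample as from a mouse but give no animal numbers, so p-values measure the spread between these 10 samples.

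Over all genes tested, the array of control mouse 1 had correlations of 0.918 to 0.947 with the rest, whereas pairs among the remaining 9 arrays reached 0.975 to 0.995. The ileal bile acid-binding gene Fabp6 was at 7.88 in control mouse 1 and between 13.88 and 14.10 in the other 9 mice, and 11 markers of absorptive epithelium averaged 8.66 in control mouse 1 and 11.33 to 11.88 in the others. The large intestine marker Car1 was at 14.17 in control mouse 1, at 13.32 in stressed mouse 4 and at 7.41 or below in the other 8 mice. The sample labelled control mouse 1 thus went against its ileal label on these markers, and counts and calls are given both with all 10 arrays and with the 9 arrays without it.

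With all 10 arrays, 0 of the 38 tested genes passed limma's test with Benjamini-Hochberg adjustment (adjusted p under 0.05), against 0% of all genes tested. Nrxn3, an adhesion molecule of the presynaptic membrane, had the smallest p of the 38, with an adjusted p = 0.252 in limma. In the 9 arrays without control mouse 1, Nrxn3 fell by 0.53 ± 0.092 (SE) on the log2 scale, to 0.693 times its control level, and Cdh19, a cadherin of the glial and Schwann cell lineage, rose by 0.78 ± 0.14 (SE), to 1.72 times its control level. These 2 of 38 (5.26%) compare with 0.798% of all genes tested in the same fit, where 36 genes rose and 73 fell (44 and 198 with each array centred on its median, and 44 and 127 with quantile normalization). The genes and the comparison without control mouse 1 were chosen with earlier results of these data known. The higher share among the 38 is therefore a description and not a test of the list. In bulk tissue, fewer or more cells of a type and less or more RNA per cell cannot be told apart.

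Most of the 38 genes were at higher values in stressed mice by small amounts, and of the 31 that were higher without control mouse 1, 1 passed the test. With 10 arrays, 27 of 38 (71.1%) were higher and 11 lower, against 50.9% of all genes higher, and the median difference was 0.093 log2 against 0.003 over all genes. In the 9 arrays, 31 of 38 (81.6%) were higher and 7 lower, against 56.2% of all genes higher, and the median difference was 0.21 against 0.025. With each array centred on the median of the genes tested, 28 of 38 were higher without control mouse 1, against 5459 of all 13666 genes, and with quantile normalization 30 of 38, against 6783. At an unadjusted p under 0.05 in limma stood 5 of 38 with 10 arrays (13.2%, against 7.82% of all genes), namely Scg2, Cartpt and Ednrb on the higher side and Nrxn3 and Gfra2 on the lower. Without control mouse 1 there were 15 (39.5%, against 18.0% of all genes), 13 of them higher and 2 lower. For 2 of 38 genes the 5 control values were apart from the 5 stressed values (5.26%, against 2.28% of all genes), namely Scg2 and Nrxn3. The 4 other control values were apart from the stressed values for 6 genes (15.8%, against 7.24%), which were Snap25, Syn2, Scg2, Gfra1, Nrxn3 and Cdh19. Because the genes were chosen with earlier results of these data known, these shares also describe the list and do not test it.

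The level of these genes also varied between mice of the same group, and along the same mice. Control mouse 1 held the highest control value for 28 of the 38 genes (73.7%), against 43.8% over all genes, and stressed mouse 1 held the highest stressed value for 24 (63.2%), against 29.0% over all genes. Among all 10 mice, the highest value lay in control mouse 1 for 20 genes and in stressed mouse 1 for 10. Without stressed mouse 1 the median difference of the 38 genes was 0.022 with the other 9 arrays, and without both it and control mouse 1 it was 0.14.

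**Figure D1:**
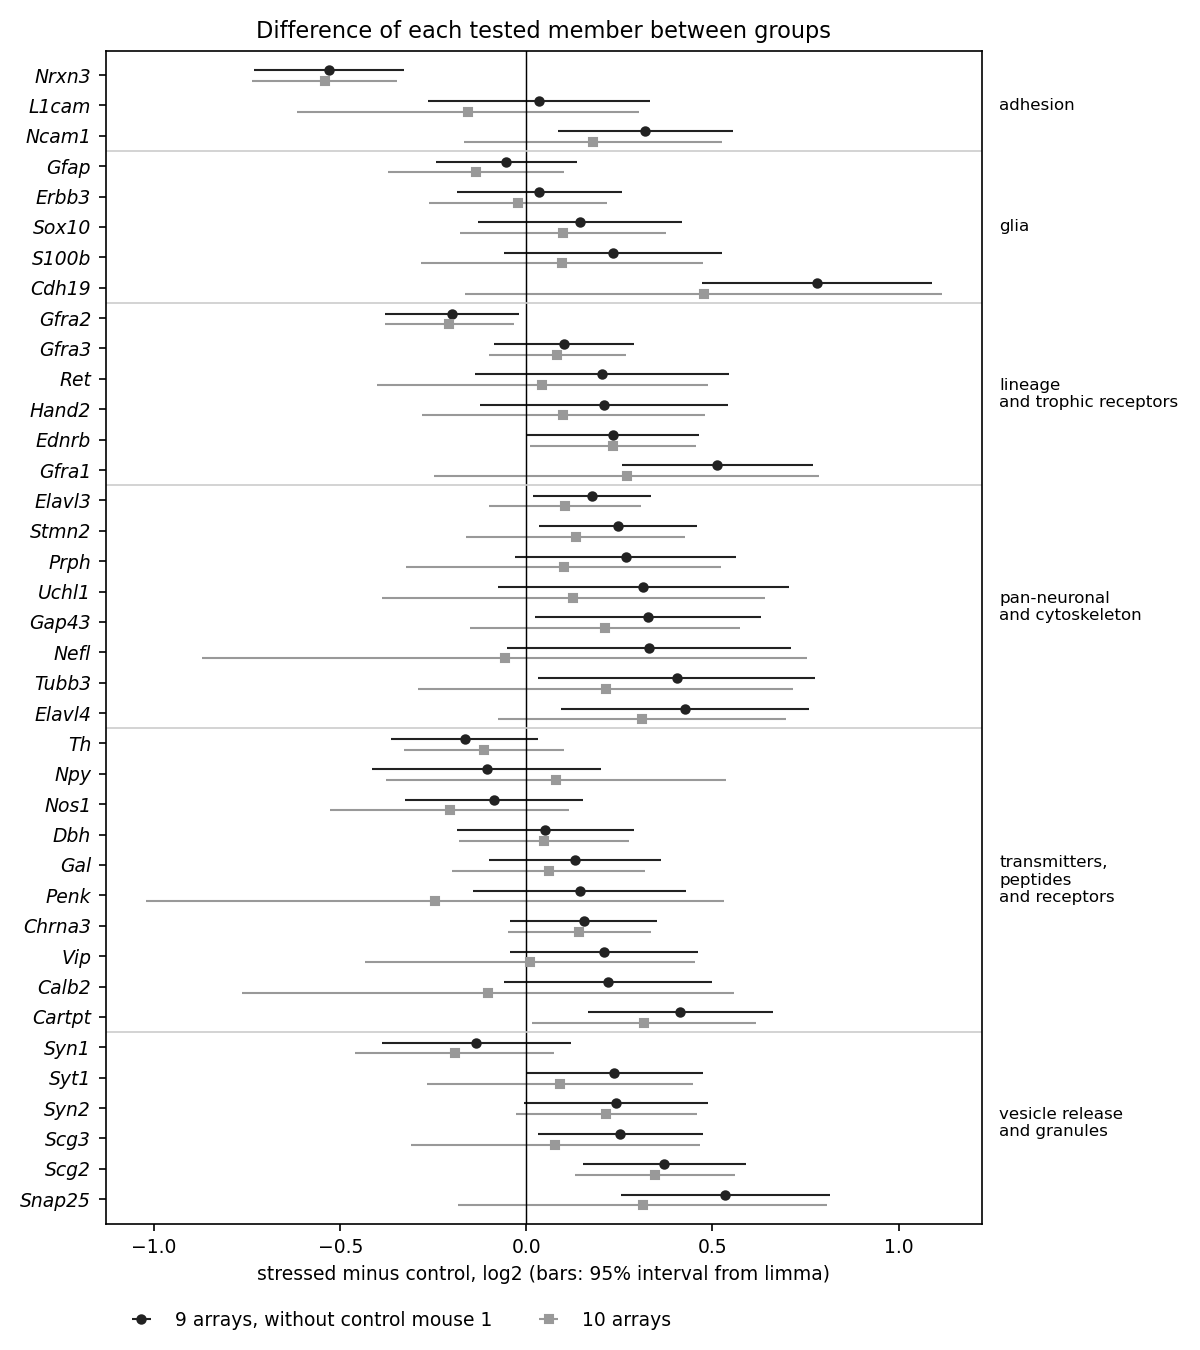
Difference between stressed and control mice for each of the 38 tested genes on the log2 scale, grouped by role, with 95% intervals from limma, shown with 10 arrays (squares) and with 9 arrays without control mouse 1 (circles). With 9 arrays 31 genes lie to the right of 0 and 7 to the left, and Nrxn3 and Cdh19 lie at the 2 ends.

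The genes of adhesion held the member with the clearest separation of the groups. Nrxn3 (NCBI Gene 18191) was at 8.44, 8.32, 8.66, 8.30 and 8.26 in control mice 1 to 5 and at 7.81, 7.93, 7.88, 7.76 and 7.91 in stressed mice 1 to 5. Each of the 5 stressed mice lay below each of the 5 control mice, with 8.26 as the lowest control value and 7.93 as the highest stressed value. The difference was -0.54 ± 0.089 (SE) with 10 arrays and -0.53 ± 0.092 (SE) without control mouse 1, where limma's adjusted p was 0.0306. The array carried 5 probe sets for Nrxn3, of which 1 was above the floor and gave these values. The other 4, with means between 2.47 and 3.82 over the 10 arrays, differed by 0.05, -0.15, 0.02 and -0.14 without control mouse 1, so the fall rests on a single probe set. In the 9 arrays the adjusted p rose above 0.05 when any of 7 of the remaining 9 mice was left out too (control mice 2, 3 and 4, stressed mice 1, 3, 4 and 5), and the difference then stayed between -0.57 and -0.44 over all 9 omissions.

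Ncam1, the neural cell adhesion molecule of neurons and glia, was at 7.46, 6.74, 6.75, 6.65 and 6.90 in control mice 1 to 5 and at 7.36, 7.02, 7.04, 7.16 and 6.80 in stressed mice 1 to 5. Stressed mice 1 to 4 lay above control mice 2 to 5 and stressed mouse 5 lay among them, while control mouse 1 had the highest value of all. The difference was 0.18 ± 0.16 (SE) with 10 arrays and 0.32 ± 0.11 (SE) without control mouse 1 (adjusted p = 0.16 in limma). L1cam, the adhesion molecule of growing axons, was at 9.68, 8.64, 8.72, 8.59 and 8.97 in control mice 1 to 5 and at 9.14, 8.70, 8.62, 8.92 and 8.43 in stressed mice 1 to 5, and the groups overlapped along most of their range. Its difference was -0.16 ± 0.21 (SE) with 10 arrays and 0.034 ± 0.14 (SE) without control mouse 1.

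**Figure D2:**
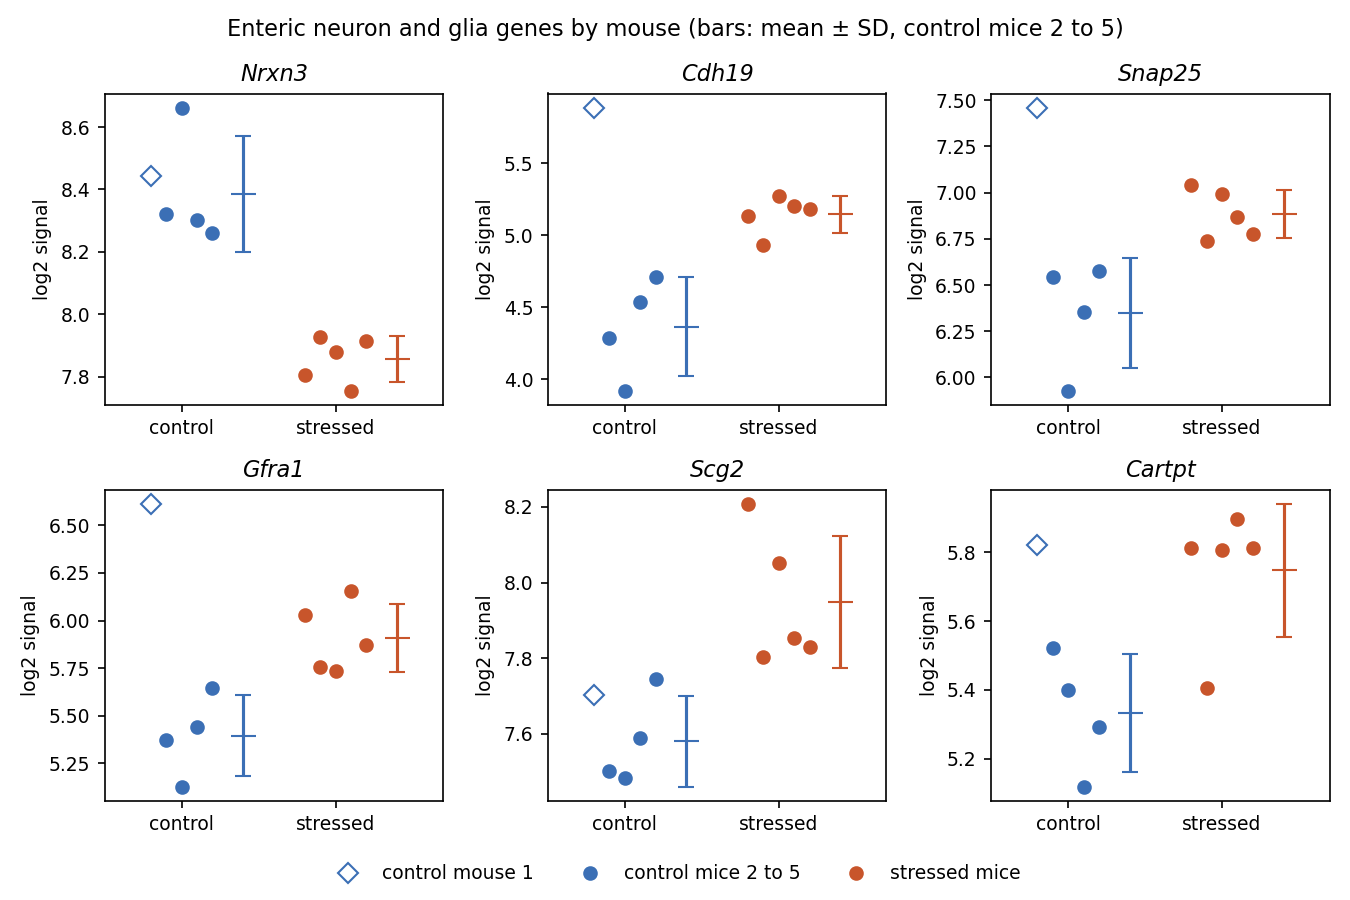
Log2 signal of 6 genes in each mouse, with control mouse 1 as an open diamond, control mice 2 to 5 in blue and stressed mice in orange. Bars give the mean ± SD of control mice 2 to 5 and of the 5 stressed mice; the y axes differ and do not start at 0. Nrxn3 and Scg2 do not overlap between the groups with or without control mouse 1, whereas Cdh19, Snap25 and Gfra1 are highest in control mouse 1.

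Among the 5 glial genes, Cdh19 was the member that passed the test. Cdh19 (NCBI Gene 227485) was at 5.89, 4.28, 3.92, 4.54 and 4.71 in control mice 1 to 5 and at 5.13, 4.93, 5.27, 5.20 and 5.18 in stressed mice 1 to 5. Stressed mice spanned 4.93 to 5.27 and lay above control mice 2 to 5, whose highest value was 4.71, but control mouse 1 lay above every stressed mouse. The difference was 0.48 ± 0.29 (SE) with 10 arrays (adjusted p = 0.76 in limma) and 0.78 ± 0.14 (SE) without control mouse 1 (adjusted p = 0.0342). Control mouse 3 lay below the floor of 4.15 and control mouse 2 just above it, and a filter that left out the lowest 60 percent of probe sets removed the gene from the test. In the 9 arrays, leaving out any of the same 7 further mice as for Nrxn3 took the adjusted p above 0.05, with differences of 0.63 to 0.90 over all 9 omissions.

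The other 4 glial genes did not pass limma in either comparison. Sox10, the transcription factor of neural crest cells and glia, was at 5.74, 5.26, 5.77, 5.57 and 5.41 in control mice 1 to 5 and at 5.67, 5.45, 5.44, 5.88 and 5.81 in stressed mice 1 to 5. Both groups covered nearly the same range, and the difference was 0.14 ± 0.13 (SE) without control mouse 1. S100b, the calcium-binding protein by which enteric glia are often stained, was at 5.41, 4.42, 4.99, 4.82 and 4.70 in control mice 1 to 5 and at 5.29, 4.70, 4.99, 5.00 and 4.84 in stressed mice 1 to 5. Control mouse 1 was highest and stressed mouse 1 next, and the other 8 mice lay between 4.42 and 5.00. The difference of S100b was 0.096 ± 0.17 (SE) with 10 arrays and 0.23 ± 0.13 (SE) without control mouse 1. A second S100b probe set above the floor, of lower mean signal, differed by 0.40 without control mouse 1. On it the stressed mice (4.56 to 5.04) lay above control mice 2 to 5 (4.18 to 4.54) and below control mouse 1 (5.19). Gfap, the intermediate filament of glia, was at 5.26, 4.80, 5.02, 4.81 and 4.81 in control mice 1 to 5 and at 4.89, 4.95, 4.64, 4.84 and 4.70 in stressed mice 1 to 5, with a difference of -0.054 ± 0.087 (SE) without control mouse 1 and overlapping groups. Erbb3, a neuregulin receptor needed by glial precursors and also made by epithelial cells, ranged from 10.96 to 11.46 over the 10 mice and differed by 0.035 ± 0.10 (SE) without control mouse 1. Cdh19 therefore stood alone among the 5 in passing the test, and the median difference of the 5 was 0.14 without control mouse 1.

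The genes of vesicle release and secretory granules were higher for 5 of 6 members in both comparisons, and 0 of the 6 passed limma's adjusted threshold, with 1 at an unadjusted p under 0.05 with 10 arrays and 3 without control mouse 1. Over all genes tested, 7.82% and 18.0% stood at that unadjusted p in these comparisons, and 50.9% and 56.2% were higher. Scg2, secretogranin II, a protein of dense-core granules and a precursor of peptides, was at 7.70, 7.50, 7.48, 7.59 and 7.74 in control mice 1 to 5 and at 8.21, 7.80, 8.05, 7.85 and 7.83 in stressed mice 1 to 5. All 5 stressed mice lay above all 5 control mice, with a gap between 7.74 and 7.80. The difference was 0.35 ± 0.098 (SE) with 10 arrays and 0.37 ± 0.10 (SE) without control mouse 1, with adjusted p = 0.407 and adjusted p = 0.0977 in limma. Scg3, secretogranin III, which binds granule cargo to the granule membrane, was at 7.49, 6.67, 6.36, 6.67 and 6.76 in control mice 1 to 5 and at 7.03, 6.69, 6.90, 6.95 and 6.77 in stressed mice 1 to 5. Control mouse 1 was highest and control mouse 3 lowest, and stressed mouse 2 lay below control mouse 5. Its difference was 0.078 ± 0.18 (SE) with 10 arrays and 0.25 ± 0.10 (SE) without control mouse 1.

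Snap25, the plasma membrane SNARE protein of regulated exocytosis, was at 7.46, 6.54, 5.93, 6.35 and 6.57 in control mice 1 to 5 and at 7.04, 6.74, 6.99, 6.87 and 6.78 in stressed mice 1 to 5. The 5 stressed mice lay above control mice 2 to 5, whose highest value was 6.57, and below control mouse 1. The difference was 0.31 ± 0.23 (SE) with 10 arrays and 0.53 ± 0.13 (SE) without control mouse 1, with an adjusted p = 0.0733 in limma. Syn2, synapsin II, which tethers synaptic vesicles, was at 5.54, 5.44, 5.43, 5.47 and 5.32 in control mice 1 to 5 and at 6.05, 5.48, 5.68, 5.55 and 5.51 in stressed mice 1 to 5. Stressed mouse 1 lay apart at 6.05, and the gap between the groups without control mouse 1 was from 5.47 to 5.48. Of the 3 Syn2 probe sets above the floor, 1 gave a difference of the opposite sign without control mouse 1, at -0.15.

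Syn1, synapsin I, was the member of this role at lower values in stressed mice, at 4.92, 4.31, 4.86, 4.72 and 4.63 in control mice 1 to 5 and at 4.60, 4.62, 4.58, 4.29 and 4.38 in stressed mice 1 to 5. Control mouse 2 lay as low as the lowest stressed mice, and the difference was -0.19 ± 0.12 (SE) with 10 arrays and -0.13 ± 0.12 (SE) without control mouse 1. Syt1, the calcium sensor of synaptic vesicle fusion, ranged from 6.24 to 7.16 in control mice and from 6.52 to 6.98 in stressed mice. Its difference without control mouse 1 was 0.24 ± 0.11 (SE).

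Scg2, Scg3 and Snap25 are also made by enteroendocrine cells, whose markers were therefore read in the same mice. Chga, chromogranin A, was at 9.22, 7.31, 7.45, 7.33 and 7.41 in control mice 1 to 5 and at 7.88, 7.64, 7.67, 7.78 and 7.53 in stressed mice 1 to 5, with a difference of 0.33 ± 0.083 (SE) without control mouse 1 and -0.045 ± 0.32 (SE) with 10 arrays. For Chgb, chromogranin B, these differences were 0.41 ± 0.10 (SE) and 0.053 ± 0.31 (SE). Of 14 enteroendocrine markers tested without control mouse 1, 10 were higher and 4 lower, 5 higher and 1 lower stood at an unadjusted p under 0.05, and the hormone gene Cck fell by 0.52 ± 0.088 (SE; adjusted p = 0.0301 in limma). Of all genes tested in that fit, 56.2% were higher and 18.0% stood at an unadjusted p under 0.05 in limma. The hormone gene Gcg differed by 0.37 ± 0.11 (SE) with 10 arrays and 0.38 ± 0.11 (SE) without control mouse 1. Its stressed values (9.77 to 10.33) lay above all its control values (9.44 to 9.74), and the groups of Isl1 were likewise apart. Groups were apart for 2 of the 14 markers with 10 arrays and for 6 without control mouse 1, against 2.28% and 7.24% of all genes. The mean of the 14 markers lay between 7.41 and 7.55 in control mice 2 to 5 and between 7.56 and 7.62 in stressed mice, with 7.71 in control mouse 1. The part of these cells in the values of Scg2, Scg3 and Snap25 was not tested.

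The start regions of Scg2 and Cartpt are shown because both genes stood at an unadjusted p under 0.05 on the higher side with and without control mouse 1 and both regions hold the full cyclic AMP response element, a letter sequence bound by CREB proteins. Ednrb also stood at that p on the higher side in both comparisons, but its start region does not hold the full element. Each is the 300 bases from 250 before to 50 after the transcription start in RefSeq's mouse annotation (GRCm38.p6), read 5' to 3' on the gene's strand, with TGACGTCA in capitals. That of Scg2 is chr1:79439977-79440276 on the minus strand, where the element starts 68 bases before the start site, and that of Cartpt is chr13:99900634-99900933 on the minus strand, where it starts 112 bases before.
Scg2: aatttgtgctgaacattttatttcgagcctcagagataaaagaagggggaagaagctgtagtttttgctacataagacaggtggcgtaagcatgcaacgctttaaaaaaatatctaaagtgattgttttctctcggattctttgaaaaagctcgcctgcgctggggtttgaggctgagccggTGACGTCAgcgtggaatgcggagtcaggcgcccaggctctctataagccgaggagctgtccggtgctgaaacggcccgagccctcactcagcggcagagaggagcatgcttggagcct
Cartpt: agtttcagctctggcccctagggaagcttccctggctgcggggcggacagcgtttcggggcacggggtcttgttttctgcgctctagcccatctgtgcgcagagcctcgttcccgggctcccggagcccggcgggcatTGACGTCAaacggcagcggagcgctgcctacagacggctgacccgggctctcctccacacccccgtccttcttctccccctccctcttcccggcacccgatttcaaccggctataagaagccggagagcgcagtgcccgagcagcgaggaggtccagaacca

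Start regions were held for 25 of the 39 genes, and 6 short motifs were searched in them on both strands. TGACGTCA stood in 4 of 25 (16.0%; Cartpt, Scg2, Syn1 and Th), against 2.03% of 27025 genes. Syn1 and Th were at lower values in stressed mice, so the genes with this element did not share a direction. Its last 5 letters, CGTCA, which overlap it, stood in 12 of 25 (48.0%), against 23.0%. The left part of the RE1 element, TCAGCACC, which the neuronal gene repressor REST binds as part of a longer site, stood in 4 of 25 (16.0%; Ednrb, Scg2, Syn1 and Tubb3), against 1.85%, and its right part, GGACAG, in 8 of 25 (32.0%), against 24.7%. ACAAAG, the core bound by SOX proteins, stood in 3 of 25 (12.0%; Nrxn3, Scg3 and Syt1), against 21.0%, and the GC box GGGCGG in 13 of 25 (52.0%), against 38.2%. A match describes these letters in these windows and not a bound site.

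The genes of the neuronal cell body and cytoskeleton were high together in control mouse 1 and in stressed mouse 1. All 8 tested members were higher in stressed mice without control mouse 1, with a median difference of 0.32, and 7 of 8 with 10 arrays, with a median of 0.13. The number that passed limma's adjusted threshold was 0, with 0 at an unadjusted p under 0.05 with 10 arrays and 5 without control mouse 1. Over all genes tested, 7.82% and 18.0% stood at that unadjusted p, and 50.9% and 56.2% were higher. The mean of the 8 members was 6.67 in control mouse 1 and 6.52 in stressed mouse 1, between 5.71 and 5.92 in control mice 2 to 5 and between 5.91 and 6.17 in stressed mice 2 to 5. Elavl4 (HuD), a neuronal RNA-binding protein, was at 6.73, 5.83, 6.01, 6.42 and 6.38 in control mice 1 to 5 and at 6.99, 6.41, 6.43, 6.69 and 6.40 in stressed mice 1 to 5. Stressed mice 2, 3 and 5 lay close to one another at the upper end of control mice 2 to 5, and the difference was 0.31 ± 0.18 (SE) with 10 arrays and 0.43 ± 0.15 (SE) without control mouse 1. All 3 of its probe sets were above the floor, and they differed by 0.43, 0.47 and 0.45 without control mouse 1.

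Elavl3 (HuC), its close relative, was at 5.17, 4.75, 4.81, 4.95 and 4.70 in control mice 1 to 5 and at 4.96, 5.01, 4.98, 4.91 and 5.03 in stressed mice 1 to 5. Stressed mice lay in a narrow band from 4.91 to 5.03 that lay below control mouse 1 and above 3 of the other 4 control mice. The difference was 0.18 ± 0.073 (SE) without control mouse 1, but the second probe set above the floor differed by -0.25, so the gene had no settled direction. Stmn2, stathmin 2, a regulator of microtubules in growing axons, was at 7.27, 6.60, 6.72, 6.67 and 6.84 in control mice 1 to 5 and at 7.21, 6.77, 6.97, 6.99 and 6.82 in stressed mice 1 to 5. Stressed mice 2 and 5 lay below control mouse 5, and the difference was 0.13 ± 0.13 (SE) with 10 arrays and 0.25 ± 0.097 (SE) without control mouse 1. Gap43, a growth cone protein that marks axon outgrowth, was at 6.39, 6.08, 5.70, 5.51 and 5.94 in control mice 1 to 5 and at 6.50, 5.92, 6.21, 6.01 and 6.04 in stressed mice 1 to 5, and control mouse 2 lay above 3 of the stressed mice. Its difference was 0.21 ± 0.17 (SE) with 10 arrays and 0.33 ± 0.14 (SE) without control mouse 1.

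The other members of this role are given by their range. Uchl1 (PGP9.5), the ubiquitin hydrolase used to stain enteric neurons, ranged from 6.10 to 7.21 in control mice and from 6.12 to 7.20 in stressed mice, with control mouse 1 and stressed mouse 1 as the highest values. Tubb3, neuronal tubulin, ranged from 4.99 to 6.16 and from 5.35 to 6.22, with the same mice highest. Prph, peripherin, an intermediate filament of peripheral neurons, ranged from 6.27 to 7.22 and from 6.33 to 7.10, and of its 4 probe sets above the floor 3 differed in the opposite direction without control mouse 1. Nefl, the light neurofilament, was at 7.18 in control mouse 1 against 4.80 to 5.55 in the other controls and 5.17 to 6.01 in stressed mice. Its difference changed sign with that mouse, from -0.058 ± 0.37 (SE) with 10 arrays to 0.33 ± 0.17 (SE) without it. Nefm, the medium neurofilament, had a mean below the floor and was not tested, with values of 3.34 to 4.96 in control mice and 3.75 to 4.34 in stressed mice.

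The 10 genes of transmitters, peptides and receptors were divided, with 6 higher and 4 lower with 10 arrays and 7 higher and 3 lower without control mouse 1. Of all genes tested, 50.9% and 56.2% were higher in these comparisons. With each array centred on its median, the higher genes of this role numbered 5 in the 10 arrays and 6 in the 9 arrays. The same centring left 5668 and 5459 of all 13666 genes higher. The number of the 10 genes that passed limma's adjusted threshold was 0. At an unadjusted p under 0.05 in limma stood 1, Cartpt, in both comparisons, against 7.82% and 18.0% of all genes. Cartpt, the precursor of the neuropeptide CART, was at 5.82, 5.52, 5.40, 5.12 and 5.29 in control mice 1 to 5 and at 5.81, 5.41, 5.81, 5.90 and 5.81 in stressed mice 1 to 5. Stressed mice 1, 3, 4 and 5 lay close together above control mice 2 to 5, and stressed mouse 2 lay apart at 5.41, within the controls. The difference was 0.32 ± 0.14 (SE) with 10 arrays and 0.41 ± 0.11 (SE) without control mouse 1 (adjusted p = 0.101 in limma). Over 18 alternative settings without control mouse 1, limma's adjusted p for Cartpt ran from 0.0383 to 0.232. It was under 0.05 in 1 of them, in which stressed mouse 2, the lowest of the stressed mice, was left out too.

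Nos1, the neuronal nitric oxide synthase of inhibitory motor neurons, was at 7.23, 6.36, 6.96, 6.64 and 6.56 in control mice 1 to 5 and at 6.65, 6.51, 6.62, 6.46 and 6.47 in stressed mice 1 to 5. Each stressed mouse lay within the range of control mice 2 to 5, and the difference was -0.21 ± 0.15 (SE) with 10 arrays and -0.086 ± 0.11 (SE) without control mouse 1. Of its 3 probe sets above the floor, 1 differed in the opposite direction, by 0.23. Vip, vasoactive intestinal peptide, the other messenger of inhibitory and secretomotor neurons, was at 9.76, 8.76, 8.62, 8.92 and 8.75 in control mice 1 to 5 and at 9.36, 8.76, 8.91, 8.90 and 8.92 in stressed mice 1 to 5. Control mouse 1 and stressed mouse 1 stood apart above the other 8 mice, which lay between 8.62 and 8.92. The difference was 0.01 ± 0.20 (SE) with 10 arrays and 0.21 ± 0.12 (SE) without control mouse 1.

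Th, tyrosine hydroxylase, the first enzyme of catecholamine synthesis, was at 4.07, 4.36, 4.25, 4.40 and 4.31 in control mice 1 to 5 and at 3.90, 4.20, 4.26, 4.14 and 4.32 in stressed mice 1 to 5, close to the floor in every mouse. Control mouse 1 and stressed mouse 1, the highest for most neuronal genes, were the lowest of their groups for Th. The difference was -0.17 ± 0.091 (SE) without control mouse 1. Dbh, which makes noradrenaline from dopamine, ranged from 6.39 to 6.93 in control mice and from 6.71 to 6.90 in stressed mice and differed by 0.051 ± 0.11 (SE). Npy, neuropeptide Y of sympathetic and secretomotor neurons, ranged from 4.92 to 6.08 and from 5.32 to 6.09, with its lowest control value in control mouse 1. These 3 genes also mark sympathetic neurons, whose cell bodies lie outside the gut wall. A second Dbh probe set above the floor was highest of all 10 mice in control mouse 1, at 6.49, so whether Dbh followed the pan-neuronal genes in that mouse depended on the probe set.

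Chrna3, the nicotinic receptor subunit of fast transmission in the ganglia, was at 5.38, 5.26, 5.13, 5.39 and 5.49 in control mice 1 to 5 and at 5.66, 5.40, 5.42, 5.45 and 5.44 in stressed mice 1 to 5. Stressed mouse 1 stood apart, the other 4 stressed mice lay between 5.40 and 5.45, and control mouse 5 lay above those 4. The difference was 0.14 ± 0.087 (SE) with 10 arrays and 0.15 ± 0.09 (SE) without control mouse 1. A second Chrna3 probe set above the floor differed by 0.37 without control mouse 1 and was highest in that mouse, at 5.86. Penk, proenkephalin, was at 8.92 in control mouse 1 against 6.89 to 7.13 in the other controls and 6.76 to 7.49 in stressed mice. Calb2, calretinin, was at 8.54 in control mouse 1 against 6.68 to 7.02 and 6.85 to 7.52. Both differed in opposite directions with and without that mouse, Penk by -0.25 ± 0.35 (SE) and 0.14 ± 0.13 (SE) and Calb2 by -0.10 ± 0.30 (SE) and 0.22 ± 0.13 (SE). Gal, galanin, ranged from 8.00 to 8.59 in control mice and from 8.20 to 8.66 in stressed mice.

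Of the 6 lineage and trophic receptor genes, 5 were higher and 1 lower in both comparisons, and 0 passed limma's adjusted threshold, with 2 at an unadjusted p under 0.05 with 10 arrays and 3 without control mouse 1. The shares of all genes tested were 7.82% and 18.0% at that unadjusted p, and 50.9% and 56.2% higher. Gfra1, the co-receptor through which GDNF acts on RET, was at 6.61, 5.37, 5.13, 5.44 and 5.64 in control mice 1 to 5 and at 6.03, 5.76, 5.74, 6.15 and 5.87 in stressed mice 1 to 5. The 5 stressed mice lay above control mice 2 to 5, whose highest value was 5.64, and control mouse 1 lay above all of them. The difference was 0.27 ± 0.24 (SE) with 10 arrays and 0.51 ± 0.12 (SE) without control mouse 1 (adjusted p = 0.0636 in limma). Gfra2, the co-receptor for neurturin, was at 6.29, 6.13, 6.31, 6.19 and 6.38 in control mice 1 to 5 and at 5.97, 6.04, 6.19, 5.94 and 6.13 in stressed mice 1 to 5. Stressed mice 1, 2 and 4 lay below all 5 controls, stressed mouse 5 lay level with control mouse 2, the lowest control, and stressed mouse 3 lay among the controls. The difference was -0.21 ± 0.079 (SE) with 10 arrays and -0.20 ± 0.082 (SE) without control mouse 1, where the other 2 probe sets above the floor differed by 0.11 and 0.02.

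The difference between Gfra1 and Gfra2 in direction was not tested. Gfra3, the artemin co-receptor, ranged from 5.89 to 6.19 in control mice and from 6.00 to 6.29 in stressed mice. Ret, the signalling receptor shared by these co-receptors, ranged from 5.95 to 7.08 and from 6.05 to 6.89, and differed by 0.20 ± 0.16 (SE) without control mouse 1. Ednrb, the endothelin receptor that neural crest cells need to colonise the hindgut, was at 7.54, 7.83, 7.29, 7.46 and 7.60 in control mice 1 to 5 and at 7.84, 7.77, 7.84, 7.82 and 7.62 in stressed mice 1 to 5. Control mice 1, 3, 4 and 5 lay below all stressed mice, and control mouse 2 lay among them. The difference was 0.23 ± 0.10 (SE) with 10 arrays and 0.23 ± 0.11 (SE) without control mouse 1, so it did not depend on that mouse, with adjusted p = 0.612 and adjusted p = 0.275 in limma. Hand2, a transcription factor of enteric neuron differentiation that smooth muscle precursors also use, ranged from 7.20 to 7.91 in control mice and from 7.18 to 8.07 in stressed mice.

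**Figure D3:**
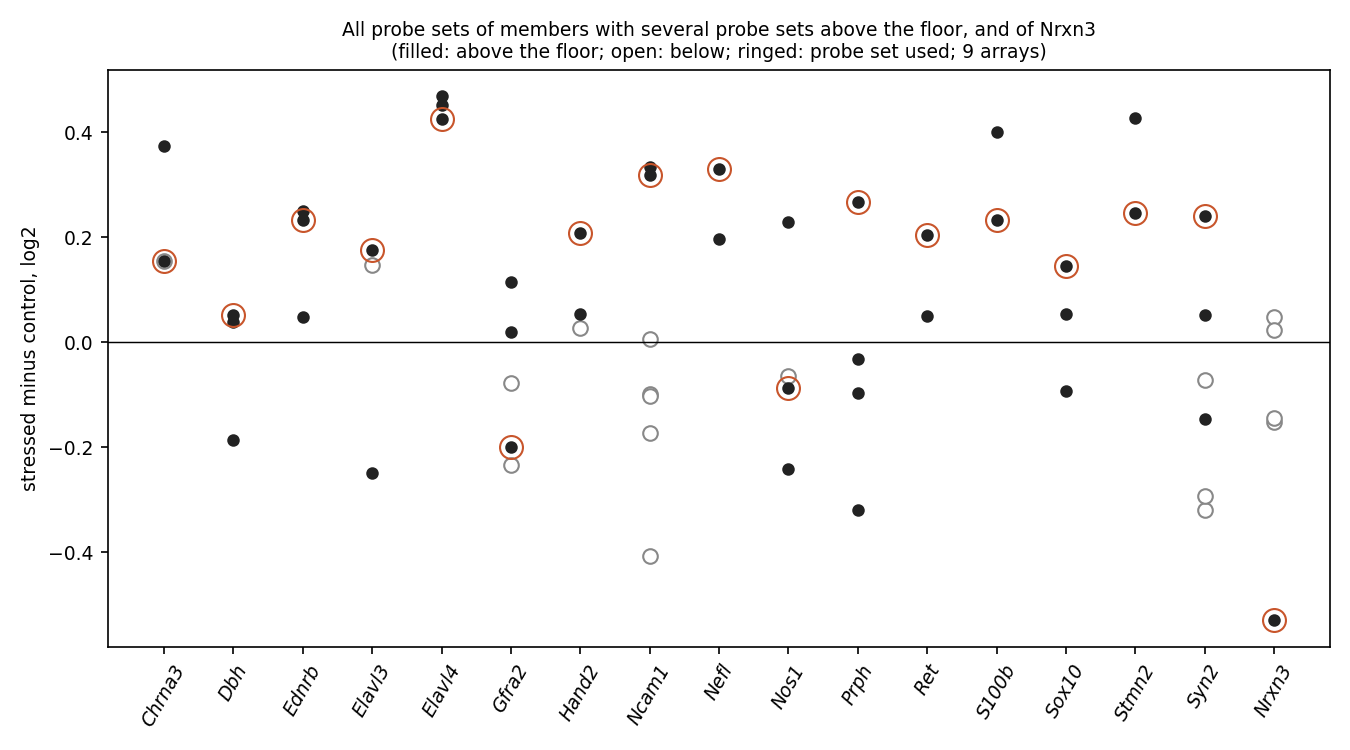
Difference between stressed and control mice on the log2 scale without control mouse 1 for each probe set of the 16 genes with more than 1 probe set above the floor, and of Nrxn3. Filled points are above the floor, open points below it, and rings mark the probe set used; 9 of the 16 genes have all filled points on the same side of 0, and for Nrxn3 the ringed point is the one that is filled.

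The array carried 92 probe sets for the 39 genes, and 63 of them were above the floor. Among the 16 genes with more than 1 probe set above the floor, all of them pointed the same way in 9 genes without control mouse 1 (Chrna3, Ednrb, Elavl4, Hand2, Ncam1, Nefl, Ret, S100b and Stmn2) and in 10 genes with all arrays. They disagreed without control mouse 1 for Dbh, Elavl3, Gfra2, Nos1, Prph, Sox10 and Syn2. A further 16 of the 39 genes had a single probe set on the array, Cdh19, Scg2 and Cartpt among them, so that no second probe set could be set beside their values.

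Markers of the muscle wall, in which the ganglia lie, were high in the same mice as the neuronal genes. The mean of 16 smooth muscle markers was 10.70 in control mouse 1 and 10.51 in stressed mouse 1, between 9.79 and 10.14 in control mice 2 to 5 and between 9.68 and 10.15 in stressed mice 2 to 5. Of these 16 markers 12 were higher and 4 lower without control mouse 1, 0 stood at an unadjusted p under 0.05 in limma, and the median difference was 0.097, or 0.033 with each array centred on its median. With 10 arrays 7 were higher and 9 lower, with a median of -0.049. Over all genes tested, 56.2% were higher without control mouse 1 and 50.9% with 10 arrays. At an unadjusted p under 0.05 in limma stood 18.0% of all genes without control mouse 1. The mean of 10 markers of interstitial cells of Cajal and PDGFRA-positive cells, which couple nerves to muscle, was 7.85 in control mouse 1 and 7.52 in stressed mouse 1, 7.00 to 7.26 in control mice 2 to 5 and 7.24 to 7.34 in stressed mice 2 to 5. Of these 10 markers 8 were higher without control mouse 1, with a median difference of 0.21, and 4 stood at an unadjusted p under 0.05. Of 11 fibroblast markers 9 were higher, with a median difference of 0.12, while with 10 arrays 3 were higher. The part of the amount of muscle wall in each sample in the differences of the neuronal and glial genes was not tested.

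**Figure D4:**
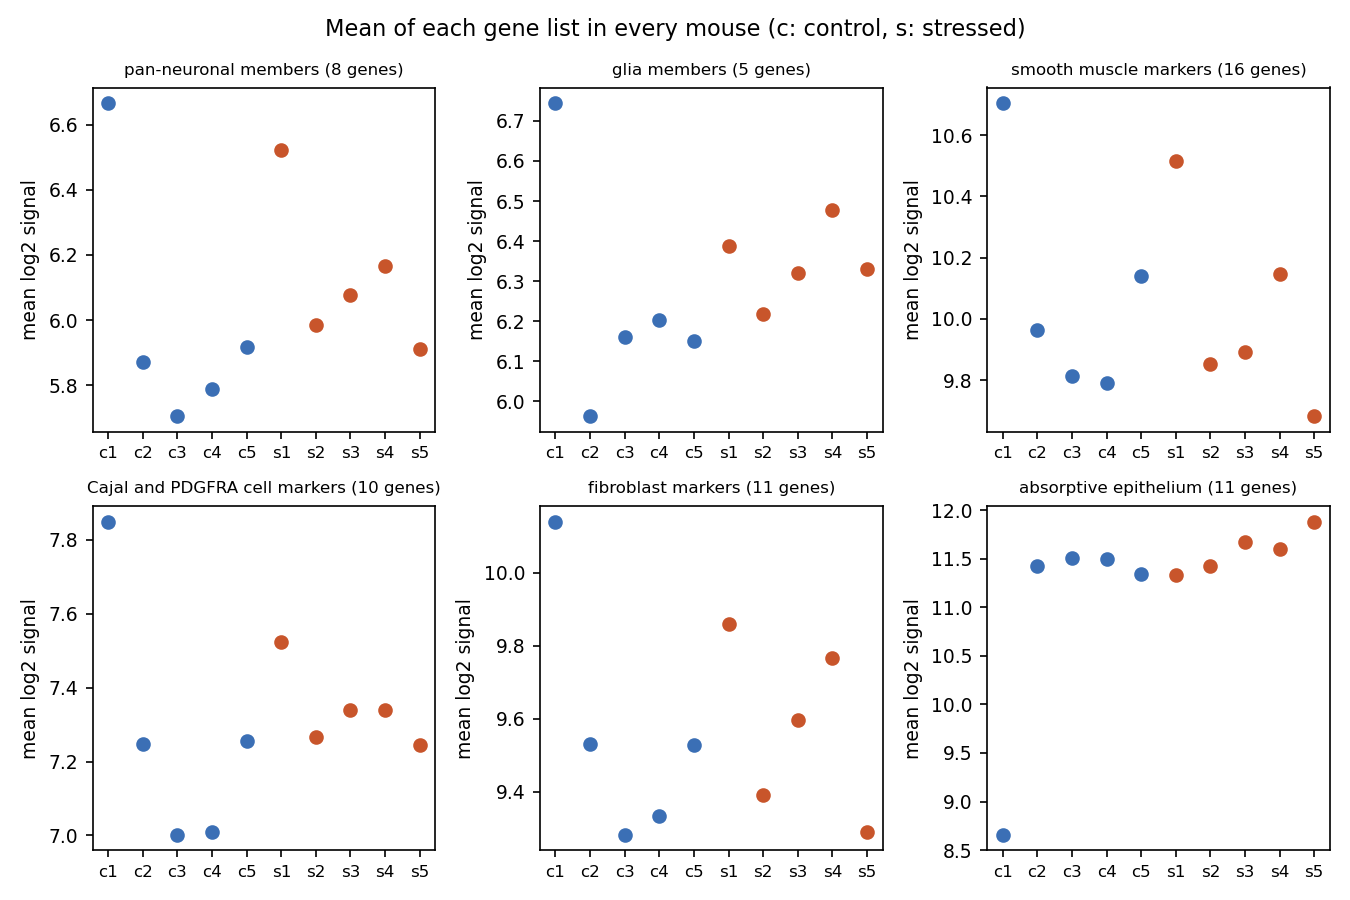
Mean log2 signal in each mouse (c, control; s, stressed) of the 8 tested pan-neuronal genes, the 5 glial genes and markers of 4 other cell types; the y axes differ and do not start at 0. Control mouse 1 is highest in 5 panels and lowest in the absorptive epithelium, and stressed mouse 1 is second in 4 of those 5, at 6.52 for the pan-neuronal genes and 10.51 for smooth muscle.

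Other genes of the same pathways were counted from 9 lists. Of all 13666 genes tested, 56.2% were higher without control mouse 1 and 50.9% with 10 arrays. With each of the 9 arrays centred on its median, 5459 of all genes were higher. Of 15 vesicle release genes tested, Rab3c, a small GTPase of synaptic vesicles, rose by 0.56 ± 0.11 (SE) without control mouse 1 (adjusted p = 0.0463 in limma), while 8 were higher, 7 lower, and the median difference was 0.10. It was the single gene called in any of the 9 lists in either comparison. Of 13 neural crest and enteric neuron transcription factors 12 were higher and 1 lower without control mouse 1, with a median difference of 0.30. The counts were 9 and 4 in these 9 arrays when each was centred on its median, and also 9 and 4 with 10 arrays. Among them Meis2 differed by 0.52 ± 0.15 (SE), Hoxb5 by 0.39 ± 0.11 (SE) and Isl1, which enteroendocrine cells also express, by 0.30 ± 0.088 (SE). Of 16 further genes of the neuronal cytoskeleton and axon 13 were higher and 3 lower, with a median of 0.18, and Kif5a, the neuronal kinesin, differed by 0.52 ± 0.16 (SE).

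Counts for the other lists follow, beside 56.2% of all genes higher without control mouse 1 and 50.9% with 10 arrays. Without control mouse 1, the higher and lower genes numbered 4 and 2 for transmitter handling, where acetylcholinesterase (Ache) differed by 0.41 ± 0.10 (SE), 9 and 5 for enteric peptides and their receptors, 6 and 5 for GDNF, endothelin-3 and neurotrophin signalling, 3 and 6 for neuronal receptors and ion channels and 5 and 5 for neuronal adhesion. The majority turned for transmitter handling with each array centred on its median (2 and 4) and for receptors and ion channels with quantile normalization (5 and 4). The GDNF gene itself (Gdnf) was at 3.92 ± 0.38 (SD, n = 4) in control mice 2 to 5 and at 4.38 ± 0.18 (SD, n = 5) in stressed mice, near the floor. Of 12 further glial genes 9 were higher and 3 lower (7 and 5 with each array centred on its median, and 7 and 5 with 10 arrays). At an unadjusted p under 0.05 in limma stood 4 higher and 3 lower without control mouse 1, against 18.0% of all genes. The 3 lower genes were Aqp4 at -0.75 ± 0.20 (SE), Mal at -0.96 ± 0.33 (SE) and Aldh1l1 at -0.29 ± 0.089 (SE). With 10 arrays Aldh1l1 differed by 0.27 ± 0.48 (SE). Aqp4 and Mal are also expressed by epithelial cells. With 10 arrays, the adjusted p of the genes named from these pathway lists ranged from 0.384 to 0.921 in limma. Without control mouse 1, limma's adjusted p was 0.0463 for Rab3c and ranged from 0.0814 (Ache) to 0.168 (Gdnf) for the others.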

How the data were processed

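Probe set signals of 10 mouse ileum arrays (5 control, 5 stressed, grouped by the sample titles) were taken from the table the authors deposited, with log2 values made by RMA (robust multi-array average), per the submitters' processing notes. The RMA software and its version are not given in these sources. The range of 1.22 to 14.37 was read as base 2. RMA gives the arrays a common distribution, and differences of genes near background are understated. Precision is limited by the number of arrays.

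Probe sets with 1 symbol in the platform annotation were kept, the lowest 40 percent by mean signal over the 10 arrays were left out, and each gene took its probe set with the highest mean. limma 3.58.1 (lmFit and eBayes) in R 4.3.3 compared the groups, with Benjamini-Hochberg adjustment over all 13666 genes, a fit tested on simulated data. Differences are log2 values of stressed minus those of control mice, with limma's standard error (SE). The genes, the lists of other genes and the comparison without control mouse 1 were chosen with earlier results of these data known. Values in every mouse are given for up to 3 genes per role by p in each comparison and for genes called. From other lists, genes were taken by the smallest p.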

Additional observations from a re-analysis of the deposited data

Results flagged for a closer look

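A single mouse lay far from the others of its group, with a gap to its neighbour above 0.71 of the group's range in a group of 5, in 10 of the 78 groups looked at (39 genes in 2 groups). Chance gives about 1 group in 20 where groups are independent and values normally spread. The 78 groups come from the same 10 arrays, and the share of flagged groups over all genes was not counted. The count is therefore not a result about these genes. Over all genes, control mouse 1 held the highest control value for 43.8%. In 5 of the 10 the mouse was control mouse 1, the sample that stood apart on markers of the ileum. It lay above the other controls for Uchl1 (7.21, next 6.38), Prph (7.22, next 6.48), Vip (9.76, next 8.92), Penk (8.92, next 7.13) and Calb2 (8.54, next 7.02). Stressed mouse 1 lay above the other stressed mice for Tubb3 (6.215, next 5.596), Vip (9.36, next 8.92) and Chrna3 (5.66, next 5.449). Stressed mouse 5 lay above the others for Dbh (6.90, next 6.76), within the range of the controls. Stressed mouse 2 lay below the others for Cartpt (5.41, next 5.81).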

How the results depend on the processing

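Limits first. With 4 or 5 mice a group, the call of Cdh19 needed control mouse 1 left out and that of Nrxn3 needed it left out or arrays weighted, and without control mouse 1 both ended when any of 7 of the other 9 mice was left out too. Low-signal genes such as Cdh19, Syn1 and Th lie where the array understates differences, and Nrxn3 and Cdh19 each rest on 1 probe set. Of 874 values of the genes described in full under alternative settings, 826 kept their direction and their side of the threshold, 28 reversed, 16 lost the call and 4 gained it. The causes of these shifts were not tested.

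Among all genes with 10 arrays, limma called 2 with the mean of the probe sets, with the largest-variance probe set, with median centring and with quantile normalization, 41 with array weights, and 0 to 109 with 1 mouse left out. Without control mouse 1, the 109 calls became 66 with the largest-variance probe set, 169 with a variance trend and robust moderation, 242 with median centring (44 higher, 198 lower), 171 with quantile normalization (44 and 127), and 6 to 154 with 1 further mouse left out. The members called with 10 arrays were 1 with array weights (Nrxn3) and 0 to 2 with 1 mouse left out. Without control mouse 1 they were 1 with a filter on the lowest 60 percent (Nrxn3) and 0 to 3 with 1 further mouse left out. The median difference of the genes with 10 arrays was 0.056 with the mean of the probe sets, 0.061 with median centring and 0.022 to 0.21 with 1 mouse left out, and without control mouse 1 it was 0.14 to 0.27 with 1 further mouse left out.

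The deviations of same-numbered control and stressed mice from their group means had correlations of -0.30 to 0.28. The control mean included control mouse 1, so these correlations cannot show whether the numbers pair the mice. The labels do not tie the numbers across the groups, and the main fit used no replicate block. With the replicate block, limma called 0 of the genes without control mouse 1 (Nrxn3 at adjusted p = 0.0687, Cdh19 at adjusted p = 0.059) and 95 of all genes, and the median difference was 0.14. With 10 arrays the block called 0 genes.

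Reversed directions were as follows. Elavl3 differed by -0.038 (10 arrays) and -0.037 (9 arrays) with the mean of its probe sets, and by -0.18 and -0.25 with its largest-variance probe set. That choice also turned Gfra2 (0.11, 9 arrays), Nos1 (0.041 and 0.23), Sox10 (-0.018 and -0.093) and Syn2 (-0.10, 10 arrays, and -0.028 with the mean of its probe sets). With 9 arrays L1cam was at -0.035 with array weights, -0.030 with median centring and -0.060 with the block. Vip with 10 arrays was at -0.022 with median centring and -0.0038 with quantile normalization. With 1 mouse left out, L1cam ranged from -0.25 to 0.034 (10 arrays) and from -0.060 to 0.12 (9 arrays), Nos1 from -0.18 to 0.023 (9 arrays), S100b from -0.017 to 0.23, Scg3 from -0.030 to 0.25 and Vip from -0.087 to 0.21 (10 arrays).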

Other observations

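Markers of other tissues that a piece of lower small intestine can carry were also measured. The mean of 9 markers of mesothelium and serosal fat was 7.67 in control mouse 1, 7.22 to 7.45 in control mice 2 to 5 and 7.31 to 7.64 in stressed mice. The mean of 5 B cell and Peyer patch markers was 6.22 in control mouse 5 and 4.41 to 4.99 in the other 9 mice. The mean of 6 pancreas markers was 6.49 in control mouse 5 and 5.48 to 5.74 in the other 9 mice. The mean of 4 large intestine markers was 10.19 in control mouse 1, 9.71 in stressed mouse 4 and 6.67 to 7.71 in the other 8 mice. Stressed mouse 4 held the highest stressed value for 5 of the 38 enteric neuron and glia genes (13.2%, against 19.7% over all genes). Control mouse 5 held the highest control value for 3 of them (7.89%, against 11.1% over all genes).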
